A study of Mus musculus with 91 samples.

Results

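The comparison described here is that of Dnmt-null and control extraembryonic ectoderm (Exe) at E7.5, over all mature miRNAs, with the weight on those outside the Dlk1-Dio3 locus. Exe is the proximal part of the early mouse embryo from which trophoblast of the placenta forms, and the epiblast (Epi) gives rise to the embryo proper. The 8 libraries were chosen by their labels, 4 Dnmt-null and 4 control, out of 91 in the series. Of the 1504 mature miRNAs counted, 597 passed the filter on low counts and were tested, of which 502 lie outside the Dlk1-Dio3 locus and 95 inside it. The question of the comparison was which miRNAs change in this tissue when all DNA methyltransferases that write and keep CpG methylation are edited.

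All embryos came from zygotes of B6D2F1 females, a cross of C57BL/6J with DBA2, and homozygous Oct4-EGFP males on C57BL/6J, so every group carries the Oct4-EGFP reporter. In the Dnmt-null embryos, called Dnmt1/3a/3b-TKO by the submitters, a cytosine base editor mRNA was injected at the zygote stage together with guide RNAs that place stop codons in Dnmt1, Dnmt3a and Dnmt3b. Dnmt1-KO embryos, edited in Dnmt1 alone, and Dnmt3a/3b-DKO embryos, edited in both de novo enzymes, gave 4 Exe libraries each at E7.5 and entered the same model. The edit was made in each embryo rather than inherited from a line, and what the control zygotes received is not given in the sources used here. Exe and Epi were separated by hand with a needle. Whether a library holds a single embryo or a pool is not given in the sources used here, so p-values measure the spread between these libraries only. The counts hold no Dnmt transcripts, and the labels could not be checked on the targeted genes.

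Small RNA was sequenced with CAS-seq, a method for very small amounts of RNA in which Cas9 removes adapter dimers. Total counts were 499399 to 2069678 in the control libraries and 266379 to 841166 in the Dnmt-null libraries, and 3 counts, the floor used for detection, corresponded to between 1.45 and 11.3 CPM, where CPM scales a library's counts to a total of 1e+06. Control replicate 2 and Dnmt-null replicate 4 stood apart. Control replicate 2 was low in miR-10a-5p, miR-10b-5p, miR-615-3p, miR-142a-5p, miR-143-3p, miR-145a-3p and miR-486, and Dnmt-null replicate 4 had a median correlation of 0.860 with the other Dnmt-null libraries, against 0.922 to 0.929 for those. Where leaving these libraries out changed a call described below or a count of a list, the value without them is given in most cases. The trophoblast miRNAs of the Sfmbt2 intron chosen as markers, with miR-322-5p, summed to 34159 to 42325 CPM in control Exe and 21815 to 39448 CPM in Dnmt-null Exe, against 1756 to 1982 CPM in control Epi. The epiblast markers, miR-302a-3p to miR-302d-3p and miR-367-3p, summed to 33368 to 45944 CPM in control Exe, against 202279 to 212606 CPM in control Epi, so the Exe libraries also held miRNAs that are far higher in Epi.

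A mature miRNA is cut from a hairpin, one from each arm (-5p and -3p), and finds its targets mainly through its seed, bases 2 to 8. DNMT3A and DNMT3B write DNA methylation on unmethylated sites and DNMT1 copies it after replication. Methylation silences germline genes in somatic and extraembryonic tissue and marks 1 parental copy at imprinted loci, and Exe is known for lower methylation than Epi. Several miRNA clusters are tied to such loci. The X-linked cluster between Slitrk2 and Fmr1 is expressed mainly in the male germ line, miR-483 lies in an intron of the imprinted gene Igf2, and the Dlk1-Dio3 locus on chromosome 12 carries a large group of maternally expressed miRNAs. The miRNAs of the Hox clusters (miR-10a, miR-10b and miR-615) are transcribed with the Hox genes that pattern the body axis, and the miR-322/miR-503 cluster on the X chromosome is high in trophoblast.

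The sequences that carry the main differences follow, from RefSeq on GRCm38.p6, 5′ to 3′, with the seed in capitals. First stand members of the germline X-linked cluster, in which hairpins lie side by side and seeds are mostly distinct. The 5p forms of miR-465a and miR-465b share a seed and differ beyond it, and miR-465a-3p, miR-465b-3p and miR-465c-3p have the same sequence, which is shown once.
miR-470-5p: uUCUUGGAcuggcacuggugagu
miR-741-3p: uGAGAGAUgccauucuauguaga
miR-871-3p: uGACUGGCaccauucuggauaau
miR-878-3p: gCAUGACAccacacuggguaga
miR-465a-5p: uAUUUAGAauggcacugauguga
miR-465b-5p: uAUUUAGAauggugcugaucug
miR-465a-3p: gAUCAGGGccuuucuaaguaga

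The next sequences are those of other miRNAs that rose outside the locus. The let-7 forms have the same seed and differ near the 3′ end.
miR-199a-5p: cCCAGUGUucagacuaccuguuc
let-7c-5p: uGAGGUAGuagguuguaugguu
let-7a-5p: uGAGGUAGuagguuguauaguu
miR-1195: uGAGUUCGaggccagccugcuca

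The last are those that fell. miR-10a-5p and miR-10b-5p share a seed, and miR-322-5p has the seed of the miR-15/16 family.
miR-483-5p: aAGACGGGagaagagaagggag
miR-483-3p: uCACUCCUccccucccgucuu
miR-10a-5p: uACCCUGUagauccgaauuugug
miR-10b-5p: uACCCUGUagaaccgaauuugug
miR-615-3p: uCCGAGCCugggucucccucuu
miR-351-5p: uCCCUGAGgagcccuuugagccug
miR-503-3p: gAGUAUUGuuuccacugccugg
miR-322-5p: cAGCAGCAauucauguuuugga
miR-30c-5p: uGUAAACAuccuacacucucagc
miR-302b-3p: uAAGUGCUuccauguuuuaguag

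A miRNA was called changed where the log2 fold change lay beyond 0.5 in either direction and the Benjamini-Hochberg adjusted p was under 0.05 over the 597 tested miRNAs (edgeR quasi-likelihood test). By this rule 59 miRNAs, 9.88% of those tested, were called. Of these, 41 rose (6.87%) and 18 fell (3.02%). Outside the Dlk1-Dio3 locus 28 rose and 18 fell, and inside it 13 rose and 0 fell. At the unadjusted p of the study's own rule 116 miRNAs passed (19.4%), 69 higher and 47 lower, and inside the locus 27 were higher and 0 lower. In 54 miRNAs (9.05%) every Dnmt-null library was above every control library, and in 46 (7.71%) every Dnmt-null library was below. Outside the locus, 17 of the 28 miRNAs that rose and 14 of the 18 that fell had no overlap between the groups.

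Levels are given as normalized CPM, the CPM after scaling each library by its TMM factor, and a log2 fold change is that of Dnmt-null over control in the fitted model. The median log2 fold change was -0.05 over all tested miRNAs, -0.15 outside the locus and 0.37 inside it. With scaling factors computed without the locus the median of all moved to 0.095, and 53 miRNAs rose and 14 fell. The number called was 33 up and 15 down without control replicate 2, 46 up and 39 down without Dnmt-null replicate 4, and 43 up and 31 down without both. It was 32 up and 10 down without Dnmt-null replicate 1, control replicate 1 or control replicate 4.

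**Figure D1:**
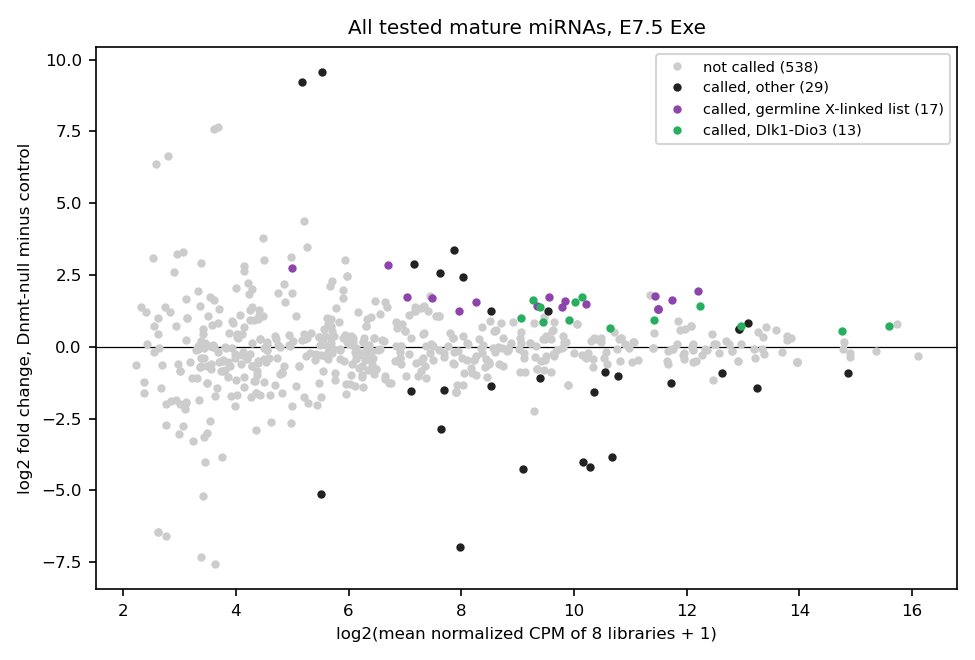
Log2 fold change of Dnmt-null over control (y axis) against the log2 mean normalized CPM of the 8 libraries plus 1 (x axis), 1 point for each of the 597 tested miRNAs. The 17 called miRNAs of the germline X-linked list and the 13 called in Dlk1-Dio3 all lie above 0, and the 29 other called miRNAs lie on both sides. Fitted values of miRNAs with 0 in most libraries of a group depend on the prior count.

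The germline X-linked list held more rises than any other list in the Dnmt-null Exe. Of 39 listed mature miRNAs 29 were tested, and 17 rose while 0 fell, against 6.87% that rose among all tested miRNAs. The median log2 fold change of the 29 was 1.68, with a range of 0.29 to 4.37. In 14 of them every Dnmt-null library was above every control library, against 9.05% of all tested miRNAs. Together they held 3.11% to 4.01% of all counts in the Dnmt-null libraries and 0.752% to 1.86% in the control libraries. The 10 untested members had at most 13.9 normalized CPM in any of the 8 libraries. Only members with enough counts in a group could be tested, and the counts over them are not counts over all 39.

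miR-470-5p (chrX:66813995-66814017, minus strand) was the most abundant of the cluster. Its normalized CPM in replicates 1 to 4 was 1548, 2135, 2891 and 1298 in the control libraries and 5859, 7211, 6475 and 10379.8 in the Dnmt-null libraries. All Dnmt-null libraries lay above all control libraries, and the mean was 3.80-fold higher (log2 fold change 1.93, SE 0.25, adjusted p = 6.36e-05). miR-741-3p (chrX:66796809-66796831) was at 1758, 1932, 2301 and 743 in the control libraries and at 5044, 6636, 5897 and 3025 in the Dnmt-null libraries. Here too the groups did not overlap, with control replicate 4 and Dnmt-null replicate 4 lowest in their groups (3.06-fold, log2 fold change 1.61, SE 0.29, adjusted p = 0.00107). For miR-871-3p (chrX:66810438-66810460) the control libraries gave 755, 1428, 1967 and 829 and the Dnmt-null libraries 3365, 4739.5, 4084 and 4972. The lowest Dnmt-null library was above the highest control library, replicate 3 (3.45-fold, log2 fold change 1.78, SE 0.29, adjusted p = 5.09e-04).

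From the hairpin of miR-878 both arms rose. miR-878-3p was at 284, 476, 474 and 155 in the control and 628, 1100.4, 1083 and 1794 in the Dnmt-null libraries, a rise of 3.32-fold (log2 fold change 1.73, SE 0.36, adjusted p = 0.00402). miR-878-5p was at 98.9, 242, 177 and 103 in control and 552, 526, 471 and 281 in Dnmt-null libraries, and rose 2.95-fold (log2 fold change 1.55, SE 0.37, adjusted p = 0.00957). Dnmt-null replicate 4 was the highest of its group for the -3p arm and the lowest for the -5p arm, and neither arm overlapped between the groups. Both arms of miR-871 rose as well, with miR-871-5p at 72.6, 107, 99.0 and 55.5 against 184, 302, 235 and 357 (3.22-fold, log2 fold change 1.68, SE 0.37, adjusted p = 0.00588). Those groups were separate too.

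The miR-465 hairpins differed in level more than in direction. miR-465a-5p was at 417, 545, 691 and 159 in the control libraries and 1325, 1653, 1330.3 and 1220.4 in the Dnmt-null libraries. It was 3.05-fold higher with no overlap (log2 fold change 1.60, SE 0.35, adjusted p = 0.0054). miR-465b-5p, with the same seed, was lower, at 19.8, 45.1, 24.9 and 9.57 in control and 208, 251, 135 and 127 in Dnmt-null libraries, and had the largest rise of the cluster's members that passed (7.25-fold, log2 fold change 2.83, SE 0.54, adjusted p = 0.00157). The third form, miR-465c-5p, rose too (log2 fold change 1.40, SE 0.32, adjusted p = 0.00753). miR-465a-3p and miR-465c-3p, of 1 sequence, had identical counts in every library, and miR-465b-3p differed from them in single counts, so the 17 calls rest on fewer separate measurements. They were at 1237, 2047, 2439.9 and 915 in the control and 2293, 3239, 3937 and 6976 in the Dnmt-null libraries for miR-465a-3p (log2 fold change 1.31, SE 0.31, adjusted p = 0.00868), where control replicate 3 was above Dnmt-null replicate 1.

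miR-471-5p, miR-743a-3p, miR-743b-3p, miR-880-3p and miR-881-3p completed the members that rose. miR-471-5p was at 52.8, 59.8, 75.6 and 49.8 in the control and 236, 262, 168 and 136 in the Dnmt-null libraries (3.37-fold, log2 fold change 1.74, SE 0.43, adjusted p = 0.0117), without overlap. miR-743a-3p and miR-743b-3p, which share a seed, rose by 1.26 (SE 0.35, adjusted p = 0.0282) and 1.48 (SE 0.36, adjusted p = 0.0107), and the second overlapped between the groups. miR-880-3p was at 414, 560.1, 580.3 and 409.6 in control and 1343, 1919, 1371 and 502.9 in Dnmt-null libraries, with Dnmt-null replicate 4 inside the control range (log2 fold change 1.38, SE 0.33, adjusted p = 0.00868, and 1.61 without that library). miR-881-3p, near the floor in the control libraries, was at 8.24, 4.88, 9.09 and 9.57 in control and 65.9, 93.9, 48.4 and 6.93 in Dnmt-null libraries, and again Dnmt-null replicate 4 was not above them (log2 fold change 2.73, SE 0.80, adjusted p = 0.0348, and 3.07 without that library). The call of miR-881-3p was lost without control replicate 2 (adjusted p = 0.114). The 12 tested members that were not called all had positive estimates, from 0.29 (SE 1.51, adjusted p = 0.965) for miR-470-3p to 4.37 (SE 1.40, adjusted p = 0.0547) for miR-883a-3p. Their levels were low, for example 0 to 11.0 in the control and 38.2 to 145 in the Dnmt-null libraries for miR-883a-3p. Without Dnmt-null replicate 4 miR-883a-3p rose (4.47, adjusted p = 0.0487). Members low in control can pass the filter through groups where they are high, so these positive signs are no separate support for a rise.

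Along the chromosome, 27 tested mature miRNAs between miR-743a-3p and miR-465a-5p (chrX:66776760-66839121, minus strand, neighbours less than 10 kb apart) formed 1 group, of which 15 rose and 0 fell. The list's rises numbered 16 without control replicate 2, 18 without Dnmt-null replicate 4 and 17 without both.

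**Figure D2:**
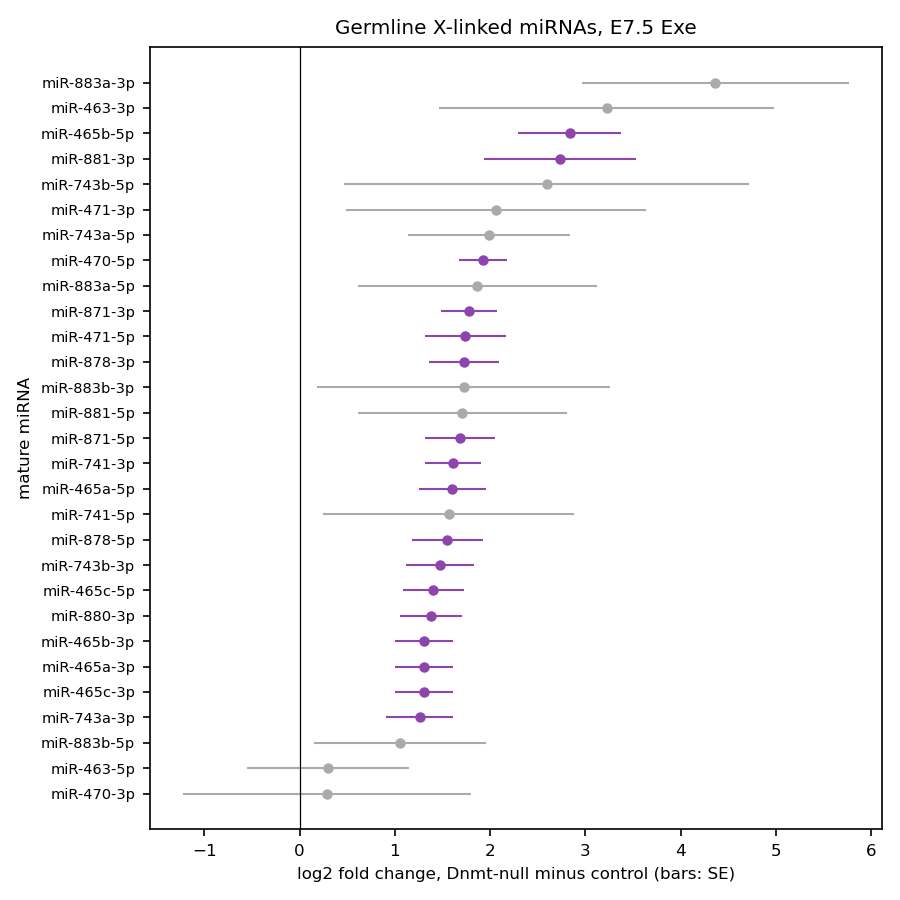
Log2 fold change of Dnmt-null over control (points) with its standard error (bars) for the 29 tested members of the germline X-linked list, ordered by size. The 17 coloured members rose, the grey ones did not pass the test, and all points lie above 0 (lowest 0.29, highest 4.37).

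miR-199a-5p, an miRNA of mesenchymal tissues, had the largest rise of those without overlap outside the locus. It was at 49.5, 53.7, 36.8 and 23.0 in the control and 517, 380.2, 492 and 321 in the Dnmt-null libraries. Every Dnmt-null library was far above the highest control library, and the mean was 10.5-fold higher (log2 fold change 3.38, SE 0.42, adjusted p = 4.92e-05). The other arm, miR-199a-3p, was at 3.30 to 42.7 in the control and 86.7 to 114 in the Dnmt-null libraries and did not pass (log2 fold change 2.47, SE 1.05, adjusted p = 0.167). miR-214-3p, made from the same transcript, was not tested and stood at 0 in 7 of the 8 libraries. The mesenchyme markers summed to 315 to 912 CPM in the control and 593 to 884 CPM in the Dnmt-null libraries, where of 4 tested markers 1 rose (miR-199a-5p) and 1 fell (miR-143-3p), and their part in the result was not tested. In bulk tissue, more cells of a type and more RNA per cell cannot be told apart.

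Of the let-7 family, which accumulates as cells differentiate, 9 of 20 listed members were tested, with a median of 0.95. Of these 2 rose and 0 fell, against 6.87% that rose among all tested miRNAs. let-7c-5p was at 23.1, 48.8, 38.8 and 23.0 in the control and 101, 134, 508 and 254 in the Dnmt-null libraries. The groups were separate and Dnmt-null replicate 3 was the highest (7.46-fold, log2 fold change 2.89, SE 0.73, adjusted p = 0.014). let-7a-5p was at 247, 229, 203 and 193 in control and 350.4, 505, 698 and 506 in Dnmt-null libraries, also without overlap (2.36-fold, log2 fold change 1.24, SE 0.35, adjusted p = 0.0292). let-7b-5p, which the study names, was at 0, 35.4, 13.9 and 24.9 in control and 48.6, 31.3, 179 and 65.1 in Dnmt-null libraries, overlapped, and did not pass (log2 fold change 2.13, SE 1.06, adjusted p = 0.258). The call of let-7a-5p was lost without Dnmt-null replicate 2 or 3 and without control replicate 2, 3 or 4 (adjusted p from 0.00379 to 0.0983 over 18 alternatives). That of let-7c-5p was lost without Dnmt-null replicate 3 and without control replicate 1 or 4 (0.000138 to 0.0664). The family's rises numbered 1 without control replicate 2 and 1 without both libraries that stand apart, where let-7a-5p did not pass (adjusted p = 0.0563). let-7 sequences differ by single bases, so reads could have been split between them.

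Other rises outside the locus were single miRNAs. miR-1195 was at 16.5, 46.4, 75.6 and 88.1 in the control and 215, 286, 414 and 428 in the Dnmt-null libraries, with no overlap (5.93-fold, log2 fold change 2.57, SE 0.43, adjusted p = 5.27e-04). miR-5126, an entry of doubted annotation, was at 14.8, 48.8, 92.3 and 174 in control and 149, 539, 541 and 522 in Dnmt-null libraries, with Dnmt-null replicate 1 inside the control range (log2 fold change 2.41, SE 0.60, adjusted p = 0.0129), and it lost its call without control replicate 2 (adjusted p = 0.0518, range over its alternatives 1.47e-04 to 0.0585). miR-320-3p, chosen after its values were seen, was at 346, 602, 358 and 452 in control and 604, 691, 907 and 1956 in Dnmt-null libraries, highest in Dnmt-null replicate 4 (log2 fold change 1.24, SE 0.34, adjusted p = 0.0238), and without that library it did not pass (0.71, adjusted p = 0.0916), though it did without both libraries that stand apart (0.89, adjusted p = 0.041). For miR-320-3p the lowest Dnmt-null library was just above the highest control library.

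Abundant families of Exe were represented by few calls. The miRNAs of the Sfmbt2 intron, a large trophoblast-rich cluster on chromosome 2, had 63 tested members of 71 listed, with a median of -0.05. Of these 1 rose and 0 fell, against 6.87% that rose and 3.02% that fell among all tested miRNAs. That member, miR-669c-5p, was at 5996, 8049.6, 5378 and 5836 in the control and 13502, 12563, 8650.5 and 9985 in the Dnmt-null libraries. All Dnmt-null libraries were above control replicate 2, the highest control (1.77-fold, log2 fold change 0.82, SE 0.19, adjusted p = 0.00868). Of the miR-290-295 cluster, typical of pluripotent cells and trophoblast, 18 were tested and 2 rose, miR-292a-5p and miR-292b-3p, against 6.87% that rose among all tested. Without Dnmt-null replicate 4 the calls turned, with 0 that rose and 4 that fell (39 of 625 fell among all tested). Those 4 were miR-290a-5p and miR-290b-3p, at -0.64 each (adjusted p = 0.0151), miR-293-3p, at -0.51 (adjusted p = 0.0105), and miR-294-5p, at -0.69 (adjusted p = 0.0338). miR-290a-5p and miR-290b-3p overlap on opposite strands and had the same count in 15 of 16 libraries, so they are not separate measurements. Without control replicate 2 and without both libraries 2 rose and 0 fell. The entries miR-292a-5p and miR-292b-3p held identical counts, 5376, 8530.3, 5074 and 5327 in the control and 8812, 10324, 8520.0 and 10118 in the Dnmt-null libraries (1.55-fold, log2 fold change 0.64, SE 0.19, adjusted p = 0.0384), where control replicate 2 was above the lowest Dnmt-null library, and the call was lost in 9 of 18 alternatives, among them leaving out Dnmt-null replicate 1, 2 or 4 or control replicate 1, 3 or 4 (adjusted p from 0.00667 to 0.104). They lie on opposite strands of 1 place on chromosome 7, as do 15 pairs of tested miRNAs that overlap by at least 15 bases, and 9 of these pairs had the same count in all 16 libraries. Reads of those 9 pairs cannot be told apart here. In 2 other pairs, miR-299a-3p with miR-299b-5p and miR-299a-5p with miR-299b-3p, the counts differed in every library. Yet miR-299a-3p and miR-299b-3p had the same total over the 16 libraries, 2888, and so did miR-299a-5p and miR-299b-5p, 261. These totals do not tell the miR-299a and miR-299b entries of an arm apart.

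miR-483 had the smallest adjusted p of all miRNAs. miR-483-5p (chr7:142654968-142654989, minus strand, in an intron of Igf2) was at 2199.8, 1780.3, 2465 and 2155 in the control and 97.1, 136, 59.2 and 237 in the Dnmt-null libraries. The highest Dnmt-null library was far below the lowest control library, and the mean was 16.2-fold lower (log2 fold change -4.01, SE 0.41, adjusted p = 4.51e-06). miR-483-3p, from the other arm (chr7:142654932-142654952), was at 2332, 1595, 2849.9 and 2647 in control and 139, 91.7, 32.3 and 260.4 in Dnmt-null libraries. It fell as steeply, again without overlap (18.0-fold, log2 fold change -4.17, SE 0.64, adjusted p = 2.36e-04). These were the 2 that fell among 9 tested miRNAs of other imprinted loci, against 3.02% that fell among all tested. The median of the 9 was -0.40, and 0 rose. Of the others, miR-296-3p of the Gnas locus, which the study names, was at 610.1, 556, 566 and 538 in control and 784, 879, 999 and 1450.4 in Dnmt-null libraries, with no overlap. It missed the adjusted threshold (log2 fold change 0.86, SE 0.27, adjusted p = 0.0507) but passed at the unadjusted p of the study's own rule.

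Most tested miRNAs of the Hox clusters fell. Of 10 listed, 5 were tested, 4 fell and 0 rose, against 3.02% that fell among all tested miRNAs, and the median log2 fold change was -5.11, the value of miR-10b-3p, which was at 0 in 3 Dnmt-null libraries. miR-615-3p (chr15:103014969-103014990, plus strand, HoxC cluster) was at 844, 23.2, 555 and 563 in the control and 6.94, 6.71, 4.04 and 0 in the Dnmt-null libraries. No Dnmt-null library held more than 3 counts, so the fold is a bound, at least 78.4-fold lower against a floor of 3 counts per library (adjusted p = 1.17e-04). miR-10a-5p (chr11:96317186-96317208, plus strand, HoxB cluster) was at 1738, 140.3, 1049 and 1252 in control and 24.3, 20.1, 121 and 45.7 in Dnmt-null libraries, and was 19.8-fold lower (log2 fold change -4.25, SE 0.75, adjusted p = 8.71e-04). miR-10b-5p (chr2:74726074-74726096, plus strand, HoxD cluster) was at 5635, 422, 2906 and 3193 in control and 118, 40.3, 409 and 269 in Dnmt-null libraries, and was 14.5-fold lower (log2 fold change -3.84, SE 0.74, adjusted p = 0.00157). In these 3 control replicate 2 was the lowest control, and the lowest control was above the highest Dnmt-null library by a small margin for miR-10a-5p and miR-10b-5p.

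miR-10b-3p was at 87.4, 7.32, 85.2 and 168 in the control and 0, 0, 8.07 and 0 in the Dnmt-null libraries, so control replicate 2 and Dnmt-null replicate 3 overlapped (log2 fold change -5.11, SE 1.41, adjusted p = 0.0254), and its call was lost without Dnmt-null replicate 1 or 2 or control replicate 4 (adjusted p from 0.000105 to 0.0755 over its alternatives). Without control replicate 2 the log2 fold change of miR-10a-5p was -4.66, that of miR-10b-5p -4.24, and 4 members of the list fell, as without Dnmt-null replicate 4 and without both libraries. Markers of blood and endothelium had negative estimates too. The blood markers, miR-451a and miR-144-3p, summed to 66.1 to 187 CPM in the control and 16.6 to 33.8 CPM in the Dnmt-null libraries, and the endothelium markers, both arms of miR-126a, to 1350.5 to 3075 CPM and 191 to 2359 CPM. None of these 4 markers passed the test, and 1 was lower at an unadjusted p, as were 47 of all 597 tested miRNAs. miR-144-3p was at 0 in 1 library, and the part of these markers in the fall of the Hox miRNAs was not tested.

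**Figure D3:**
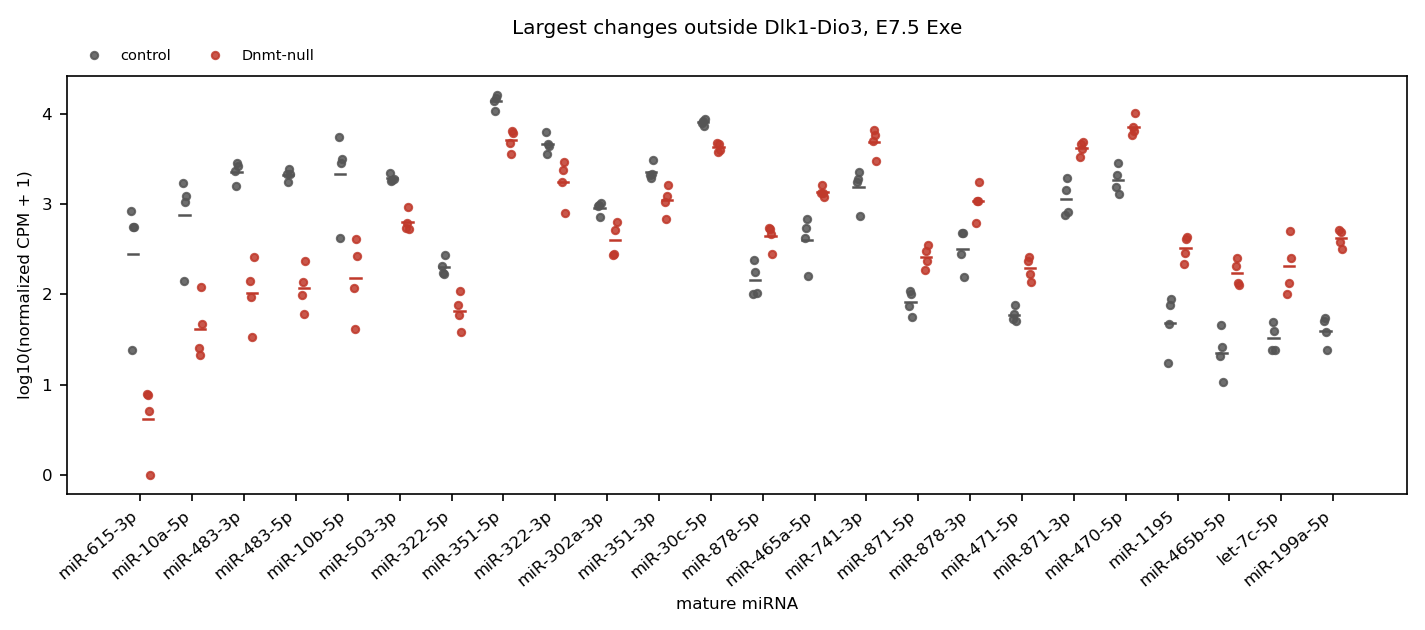
Normalized CPM, as log10 of the value plus 1, in each control (grey) and Dnmt-null (red) library for the 12 lowest and 12 highest log2 fold changes outside Dlk1-Dio3 among called miRNAs whose groups do not overlap. Points are libraries and bars are means of the log10 values. Control replicate 2 is the low grey point of miR-615-3p, miR-10a-5p and miR-10b-5p, at 23.2, 140.3 and 422 normalized CPM.

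Members of the miR-322/miR-503 cluster of the X chromosome also fell. Of 13 listed members 11 were tested, 5 fell and 0 rose, against 3.02% that fell among all tested miRNAs. The median was -0.92, the highest estimate 0.44, and in 6 every Dnmt-null library was below every control library, against 7.71% of all. miR-351-5p (chrX:53053315-53053338, minus strand), the most abundant, was at 14112, 11019.5, 15155 and 16334 in the control and 4753, 3614, 6467 and 6236 in the Dnmt-null libraries. The groups were well apart (2.69-fold lower, log2 fold change -1.43, SE 0.20, adjusted p = 1.17e-04). miR-503-3p (chrX:53053987-53054008) was at 2249, 1816, 1864 and 1901 in control and 552, 626, 927 and 535 in Dnmt-null libraries, and its groups were also separate (2.97-fold lower, log2 fold change -1.57, SE 0.22, adjusted p = 1.17e-04). miR-322-3p was at 6349, 3584, 4718 and 4401 in control and 1769, 2389, 2967 and 794 in Dnmt-null libraries, lowest in Dnmt-null replicate 4 (2.41-fold lower, log2 fold change -1.27, SE 0.31, adjusted p = 0.0117).

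The other members that fell were miR-351-3p and miR-322-5p. miR-351-3p was at 2112, 1962, 2202 and 3112 in the control and 1072, 687, 1231 and 1646 in the Dnmt-null libraries (log2 fold change -1.02, SE 0.26, adjusted p = 0.0131). miR-322-5p, a trophoblast marker with far fewer counts than its -3p arm, was at 204, 171, 168 and 272 in control and 76.3, 58.2, 109 and 37.4 in Dnmt-null libraries (log2 fold change -1.53, SE 0.46, adjusted p = 0.0391). Neither overlapped between the groups, but the call of miR-322-5p was lost in 11 of 18 alternatives, among them leaving out any control library or Dnmt-null replicate 1, 2 or 4, and the adjusted p over the 18 was 0.00768 to 0.127. miR-351-3p lost its call without control replicate 4 (0.00207 to 0.065), and miR-322-3p without control replicate 1 (5.49e-06 to 0.0508). Of the list, 4 members fell without control replicate 2, without Dnmt-null replicate 4 and without both. The seed of miR-322-5p is shared by 5 tested miRNAs, and of these it alone was called.

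miR-30c-5p, the member of its family of 11 tested that fell, was an abundant miRNA. It was at 8003, 8539, 7423 and 8968 in the control and 4805, 3818, 4721 and 4023 in the Dnmt-null libraries. The spread within each group was small and the groups were apart (1.90-fold lower, log2 fold change -0.92, SE 0.15, adjusted p = 5.09e-04). The other 10 tested members of the miR-30 family did not pass, and the family's median was -0.12. miR-130b-5p was at 2093, 1845, 2038 and 1830.0 in control and 777, 801, 1165 and 1479 in Dnmt-null libraries (1.85-fold lower, log2 fold change -0.88, SE 0.25, adjusted p = 0.0282), and was the 1 of 7 tested miR-130/miR-301 miRNAs that fell, a call lost without control replicate 1 or 3 or Dnmt-null replicate 1 or 2 (adjusted p from 0.00327 to 0.0909). miR-92a-2-5p was at 218, 355, 261 and 383 in control and 62.4, 60.4, 57.8 and 241 in Dnmt-null libraries, with Dnmt-null replicate 4 within the control range (log2 fold change -1.51, SE 0.44, adjusted p = 0.0311), and was the 1 of 22 tested in the miR-17/92 clusters that fell, a call lost without any single library but control replicate 3 or Dnmt-null replicate 4 (0.000153 to 0.106). Without Dnmt-null replicate 4, and without both libraries that stand apart, 4 of 23 in these clusters fell, miR-92a-2-5p with miR-92a-3p, miR-25-3p and miR-25-5p, and without control replicate 2 0 fell. Among all tested miRNAs 3.02% fell with all libraries, to be set beside 1 of 11, 1 of 7 and 1 of 22 above. Without Dnmt-null replicate 4 it was 39 of 625.

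From the miR-302/miR-367 cluster, which marks pluripotent epiblast, 2 members fell. Of 10 listed members 9 were tested and 0 rose, with a median of -0.87, and all tested miRNAs had 3.02% that fell. In 5 members every Dnmt-null library was below every control library, against 7.71% of all. miR-302b-3p was at 40125, 45491, 31133 and 38320.1 in the control and 17328, 16155, 26013 and 22396 in the Dnmt-null libraries (1.89-fold lower, log2 fold change -0.92, SE 0.26, adjusted p = 0.0293). miR-302a-3p was at 949.8, 972, 727 and 1034 in control and 271, 282, 512 and 643 in Dnmt-null libraries (2.16-fold lower, log2 fold change -1.10, SE 0.31, adjusted p = 0.0291). Neither overlapped. Both lost the call without control replicate 1, 2 or 4 or Dnmt-null replicate 1 or 2, and with TMM factors computed without the locus, with adjusted p up to 0.0909 and 0.0915 over their alternatives. The number of members that fell was 0 without control replicate 2, 5 without Dnmt-null replicate 4 and 2 without both, where these were miR-302a-3p and miR-302c-3p, while miR-302b-3p did not pass (adjusted p = 0.0595). The epiblast markers, which are members of this cluster, summed to 17252 to 27413 CPM in Dnmt-null Exe, below the control Exe range given above, and how much epiblast tissue the dissected pieces held was not tested.

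miR-143-3p and miR-145a-3p, miRNAs of smooth muscle and mesenchyme, fell. miR-143-3p was at 768, 204, 596 and 561 in the control and 76.3, 224, 272 and 255 in the Dnmt-null libraries, where control replicate 2 lay among the Dnmt-null libraries (log2 fold change -1.35, SE 0.42, adjusted p = 0.0432). miR-145a-3p was at 508, 96.4, 455 and 343 in control and 0, 13.4, 69.9 and 103 in Dnmt-null libraries, with control replicate 2 below Dnmt-null replicate 4 (log2 fold change -2.85, SE 0.86, adjusted p = 0.0384). Without control replicate 2 the estimates were -1.67 and -3.20. Both lost the call without Dnmt-null replicate 1 or 2 or control replicate 1, 3 or 4, with adjusted p up to 0.167 and 0.108 over their alternatives.

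Within the Dlk1-Dio3 locus 13 of 95 tested miRNAs were called, all of them rises, against 6.87% that rose among all tested. All 13 had no overlap between the groups. In 24 of the 95 every Dnmt-null library was above every control library, against 9.05% of all tested. The locus held 20.1% to 25.8% of the counts in the Dnmt-null and 14.6% to 17.8% in the control libraries. miR-543-3p was at 552, 639, 443 and 446 in the control and 1998, 2098, 1859 and 960.0 in the Dnmt-null libraries, with Dnmt-null replicate 4 lowest of its group but above all controls (3.32-fold, log2 fold change 1.73, SE 0.29, adjusted p = 5.24e-04). Further rises were those of miR-666-5p, 1.63 (SE 0.28, adjusted p = 6.27e-04), miR-134-5p, 1.56 (SE 0.30, adjusted p = 0.00157), miR-485-3p, 1.42 (SE 0.20, adjusted p = 1.17e-04), and miR-382-5p, 1.37 (SE 0.35, adjusted p = 0.0142). Of the 10 locus miRNAs that the study names, miR-127-3p rose by 0.73 (SE 0.14, adjusted p = 0.00157). It was at 34563 to 42906 in the control and 56731 to 68064 in the Dnmt-null libraries. Also of that list, miR-409-3p and miR-409-5p rose by 0.56 (SE 0.14, adjusted p = 0.013) and 0.73 (SE 0.15, adjusted p = 0.00402). That list was drawn by the study with these libraries in view and is not independent evidence. The others, both arms of miR-369, miR-540 and miR-541 with miR-127-5p, did not pass, from -0.59 (SE 0.37, adjusted p = 0.42) for miR-540-3p to 3.01 (SE 1.38, adjusted p = 0.199) for miR-540-5p. miR-382-5p lost its call without Dnmt-null replicate 1 (adjusted p up to 0.0786), and miR-409-3p without control replicate 2 or Dnmt-null replicate 4 (up to 0.0811, and under the fold threshold in the latter). Without control replicate 2 the locus had 8 rises, without Dnmt-null replicate 4 19 and without both 16. The number was 22 with scaling factors computed without the locus, 22 with DESeq2 and 10 with library totals as the only scaling.

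Of the 6 most abundant miRNAs of control Exe 2 were called, miR-302b-3p, which fell, and miR-127-3p, which rose, both described above. miR-92a-3p was at 73778, 77209.9, 75980.1 and 85966 in the control and 41577, 42188, 54546 and 111338 in the Dnmt-null libraries, highest in Dnmt-null replicate 4 (log2 fold change -0.33, SE 0.24, adjusted p = 0.526). Without that library it fell, by 0.80 on the log2 scale (adjusted p = 0.00181, range over its alternatives 0.00181 to 0.794). miR-295-3p was at 41118, 52612, 39178 and 43866 in control and 41140.1, 43391, 35303 and 39807 in Dnmt-null libraries, overlapping (log2 fold change -0.15, SE 0.13, adjusted p = 0.606). miR-5099, an entry of doubted annotation, was at 36754, 38257, 42052 and 42305 in control and 57112, 44342, 41138 and 132261 in Dnmt-null libraries, again highest in Dnmt-null replicate 4 (log2 fold change 0.79, SE 0.38, adjusted p = 0.237), and without that library the estimate was 0.23 (adjusted p = 0.804). miR-293-3p was at 32152, 40019.8, 33333 and 32352 in control and 24974, 22691, 26684 and 32187 in Dnmt-null libraries, with Dnmt-null replicate 4 inside the control range (log2 fold change -0.37, SE 0.13, adjusted p = 0.093), and without that library it passed. None of these 4 passed with all libraries.

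Other lists had 0 called members with all libraries. In the blood and endothelial list 13 of 18 were tested, with a median of -1.57. Against 47 of all 597 tested, 4 of the list were lower at an unadjusted p, among them miR-142a-5p, at 1921, 118, 1007 and 1116 in the control and 83.3, 24.6, 652 and 103 in the Dnmt-null libraries (log2 fold change -2.25, SE 0.79, adjusted p = 0.0862). Without control replicate 2, the lowest control, miR-142a-5p fell (-2.66, adjusted p = 0.0287), and without both libraries it did not pass (-2.43, adjusted p = 0.0562). The miR-200 family and miR-205, typical of epithelia, had 10 of 11 tested with a median of -0.47. Without Dnmt-null replicate 4, and without both libraries, miR-205-5p fell (-1.57 and -1.71, adjusted p = 0.0218 and 0.0199) and miR-192-5p of the endoderm list rose (0.88 and 0.86, adjusted p = 0.00468 and 0.0117). miR-192-5p was at 1632 normalized CPM in that replicate and 5316 to 6556 in the other Dnmt-null libraries, and miR-194-5p at 67.9 against 496 to 697. The miR-29 and miR-148/miR-152 families, whose targets include Dnmt transcripts, had 9 of 13 tested with a median of -0.43. Medians were -0.40 for the 8 tested of the miR-23/27/24 clusters, 0.68 for 7 of the miR-99/100 and miR-125 families, -0.25 for 6 of the miR-15/miR-16/miR-195 family and 0.25 for 6 of the miR-183/miR-96/miR-182 cluster. They were 0.18 for 6 endoderm miRNAs, -0.69 for 6 neural ones, -0.20 for 5 of the miR-181 family, -0.04 for 4 of muscle and -1.34 for 2 of the miR-34 family, and the 1 tested of miR-221/miR-222 was at 0.44. At an unadjusted p, 1 miRNA each of the miR-200 and miR-181 families was lower, and 1 each of the endoderm list and the miR-99/100 and miR-125 families higher. Of all 597 tested, 47 were lower and 69 higher by that rule. In DESeq2 the comparison as a whole gave 77 calls, 53 higher and 24 lower.

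**Figure D4:**
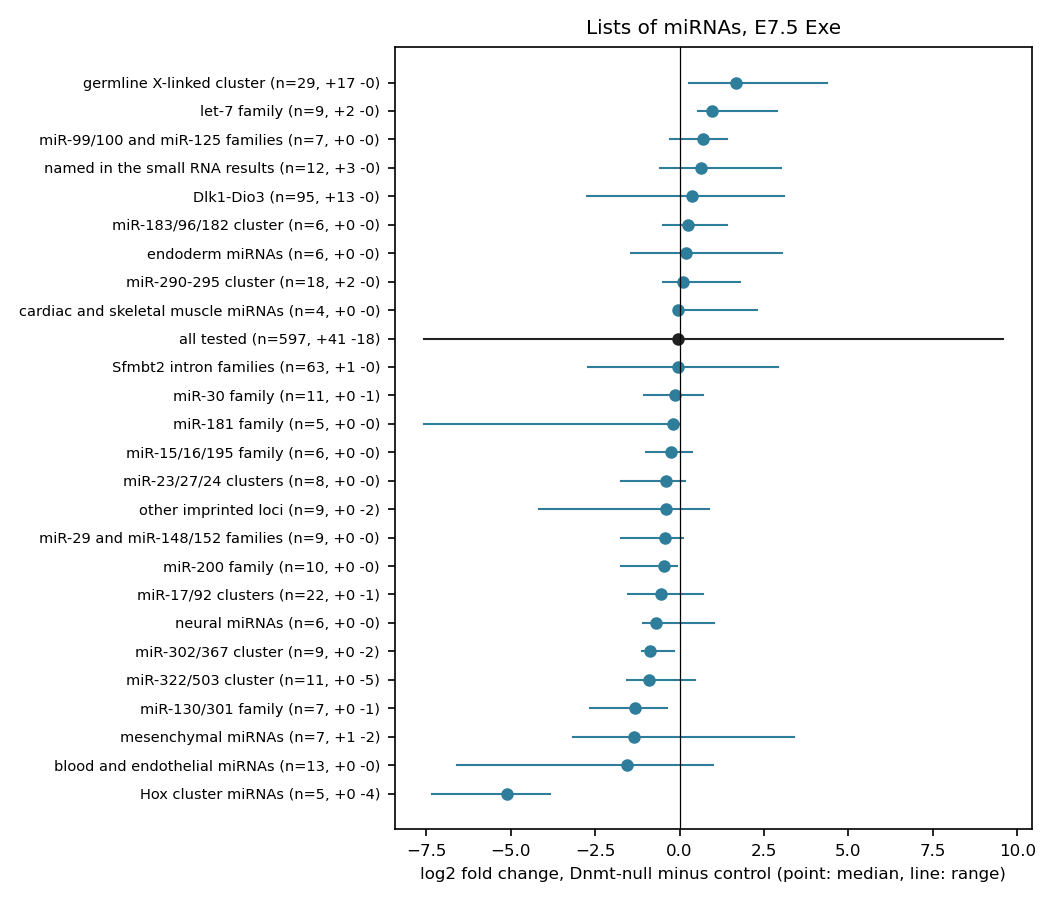
Median (point) and range (line) of the log2 fold change of Dnmt-null over control for each list with at least 4 tested miRNAs, with the number tested and the numbers that rose (+) and fell (-) in brackets. The germline X-linked cluster (median 1.68) and the Hox miRNAs (median -5.11) stand at the ends, and all 597 tested miRNAs have a median of -0.05.

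Against the partial mutants, the Dnmt-null Exe differed in few miRNAs. These tests share the Dnmt-null libraries with the comparison above, so the levels are set side by side. Against Dnmt1-KO, 7 of 597 miRNAs (1.17%) were called, 4 higher and 3 lower, and against Dnmt3a/3b-DKO 23 (3.85%), 8 higher and 15 lower. With library totals as the only scaling the last split was 5 higher and 16 lower. The count against Dnmt1-KO was 41 without Dnmt-null replicate 4, 14 without Dnmt1-KO replicate 4, 13 without Dnmt-null replicate 3, 4 without Dnmt-null replicate 1 and 3 without Dnmt-null replicate 2. The count against Dnmt3a/3b-DKO was 11 without Dnmt-null replicate 1, 13 without Dnmt-null replicate 2 and 11 without Dnmt3a/3b-DKO replicate 2.

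The germline X-linked miRNAs were at like levels in the 3 mutants. Against 1298 to 2891 in control and 5859 to 10379.8 in Dnmt-null libraries, miR-470-5p was at 4674 to 6478 where both de novo enzymes were edited and at 5319 to 7976 in Dnmt1-KO. The log2 difference of Dnmt-null was 0.13 (SE 0.24, adjusted p = 0.895) from Dnmt1-KO and 0.40 (SE 0.24, adjusted p = 0.702) from Dnmt3a/3b-DKO. Of the 29 tested members 0 were called against either mutant, and their share of counts was 3.23% to 3.70% in Dnmt1-KO and 3.15% to 4.28% in Dnmt3a/3b-DKO. miR-1195 was likewise at 414 to 861 in Dnmt1-KO and 304 to 494 in Dnmt3a/3b-DKO. miR-199a-5p stood between, at 80.3 to 237 in Dnmt1-KO and 168 to 233 in Dnmt3a/3b-DKO, and its Dnmt-null level, though above both ranges, did not pass against either (1.45 (SE 0.39, adjusted p = 0.0697) and 1.16 (SE 0.38, adjusted p = 0.122) on the log2 scale). That misses the threshold and does not show that the levels are equal.

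Levels of miR-30c-5p and miR-483-5p in Dnmt1-KO were near those of Dnmt-null, and in Dnmt3a/3b-DKO near control. For miR-30c-5p the control range was 7423 to 8968 and that of Dnmt3a/3b-DKO 7908 to 9423, while Dnmt1-KO libraries were at 4014 to 5483 and Dnmt-null libraries at 3818 to 4805. The Dnmt-null libraries were lower than Dnmt3a/3b-DKO by a log2 difference of -1.01 (SE 0.15, adjusted p = 5.35e-04), and differed from Dnmt1-KO by -0.05 (SE 0.15, adjusted p = 0.916). miR-483-5p was at 119 to 411 in Dnmt1-KO and 1566 to 2004 in Dnmt3a/3b-DKO, and the differences of Dnmt-null were -0.97 (SE 0.37, adjusted p = 0.208) and -3.74 (SE 0.40, adjusted p = 1.14e-05). miR-127-3p of the locus was at 48444 to 78071 in Dnmt1-KO and 42656 to 47390.5 in Dnmt3a/3b-DKO.

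Another set was lowest, or highest, in Dnmt-null Exe. The range of miR-503-3p was 535 to 927 in Dnmt-null, below 1348 to 1629.9 in Dnmt1-KO and 1213 to 1726 in Dnmt3a/3b-DKO, a log2 difference of -1.18 (SE 0.22, adjusted p = 0.00615) and -1.13 (SE 0.22, adjusted p = 0.00322). miR-615-3p was at 98.9 to 213 in Dnmt1-KO and 187 to 750.3 in Dnmt3a/3b-DKO, and Dnmt-null, at the floor, was lower than both (adjusted p = 0.00583 and 3.59e-04). miR-10a-5p and miR-10b-5p were lower than in Dnmt3a/3b-DKO by -4.15 (SE 0.75, adjusted p = 0.00243) and -3.80 (SE 0.73, adjusted p = 0.0033), and against Dnmt1-KO gave -2.90 (SE 0.72, adjusted p = 0.0515) and -2.43 (SE 0.69, adjusted p = 0.0899). miR-669c-5p was at 3948 to 5969 in Dnmt1-KO and 5846 to 8259.8 in Dnmt3a/3b-DKO, and Dnmt-null was higher by 1.14 (SE 0.19, adjusted p = 0.00583) and 0.71 (SE 0.19, adjusted p = 0.0447). miR-351-5p was lower than in Dnmt3a/3b-DKO by -1.11 (SE 0.20, adjusted p = 0.00243) and gave -0.75 (SE 0.20, adjusted p = 0.0697) against Dnmt1-KO.

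**Figure D5:**
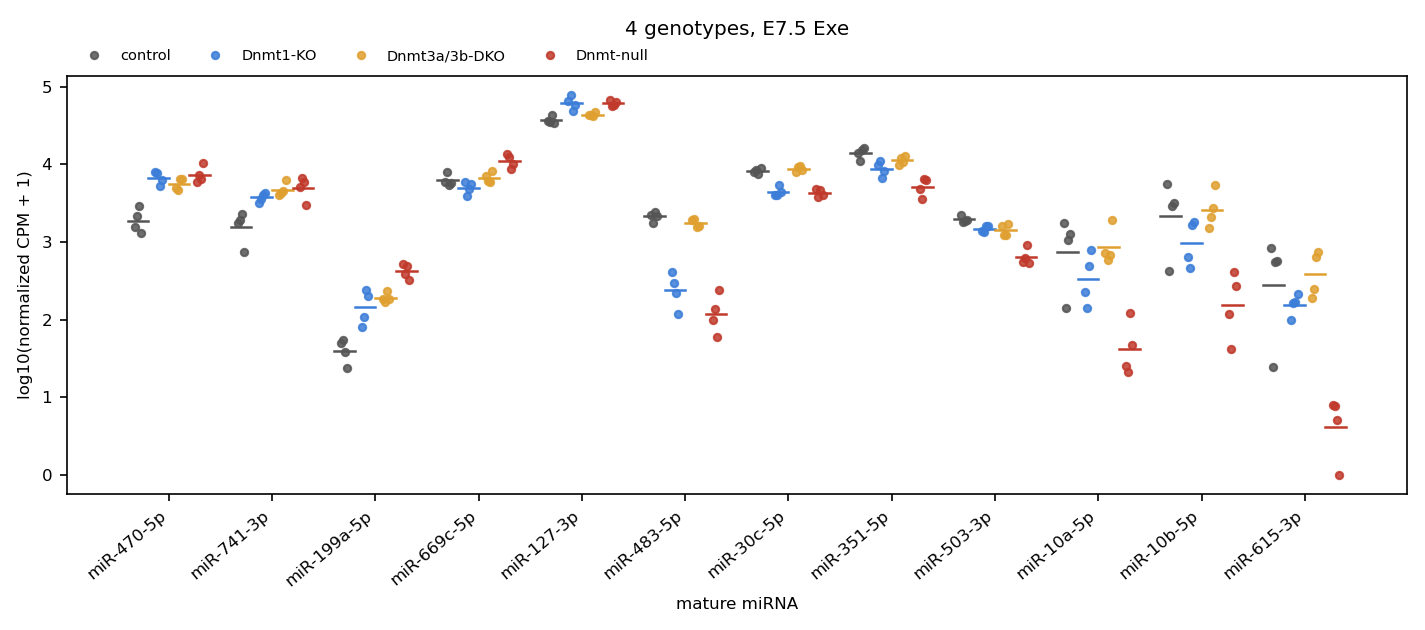
Normalized CPM, as log10 of the value plus 1, of 12 miRNAs in each E7.5 Exe library of the 4 genotypes, with bars at the mean of the log10 values. The 3 mutants lie together above control for miR-470-5p and miR-741-3p, Dnmt1-KO and Dnmt-null lie below the other groups for miR-483-5p and miR-30c-5p, and Dnmt-null lies lowest for miR-503-3p and miR-615-3p.

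Whether the Dnmt-null effect was the same in Epi of the same stage was tested as an interaction over E7.5 Exe and Epi. It differed in 51 of 728 miRNAs (7.01%), 8 higher and 43 lower in Exe than in Epi, and in 0 of 102 locus miRNAs. The median difference over all miRNAs was -0.21, and -0.34 with scaling factors computed without the locus, against which the values below are to be read. The count was 31 without Epi Dnmt-null replicate 2 and 28 without Epi control replicate 3. Of 30 germline X-linked miRNAs 13 had a smaller rise in Exe and 0 a larger one, with a median difference of -2.03. miR-470-5p, in CPM, was at 1358 to 2919.8 in control and 6341 to 8908 in Dnmt-null Exe, and at 146 to 517 in control and 4362 to 4894 in Dnmt-null Epi. By ratio, the Dnmt-null levels of Exe and Epi were nearer to each other than the control levels, and the difference of the effects was -2.10 (SE 0.42, adjusted p = 0.00152).

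The Sfmbt2 and miR-290-295 clusters also differed between the tissues. Of 67 Sfmbt2 miRNAs 19 differed and of 18 miR-290-295 miRNAs 8, all lower in Exe, against 43 lower of all 728 tested. The 8 include miR-290a-5p with miR-290b-3p and miR-292a-5p with miR-292b-3p. The counts of each of these pairs were the same, or nearly so, in E7.5 Exe, so the 8 are not all separate measurements. miR-466a-3p was at 16295 to 21349 CPM in control and 9742 to 16480.5 in Dnmt-null Exe, and at 833 to 1023 and 1728 to 3634 in Epi, a difference of effects of -2.04 (SE 0.34, adjusted p = 1.80e-04). miR-466b-3p, miR-466c-3p, miR-466e-3p and miR-466p-3p gave differences of -2.04 to -2.03 from near-identical sequences, so they are not separate measurements. miR-295-3p differed by -0.97 (SE 0.22, adjusted p = 0.00521). miR-142a-5p, of blood cells, was at 113 to 1943 in control and 25.2 to 655 in Dnmt-null Exe but at 4.31 to 58.0 and 781 to 1035 in Epi, and differed by -7.25 (SE 1.16, adjusted p = 1.80e-04). In the other direction, miR-351-3p fell more in Epi, from a median of 665 to one of 57.1 CPM, with a difference of 2.36 (SE 0.42, adjusted p = 3.98e-04). For miR-483-5p all Dnmt-null Epi libraries were at 0, against 555 to 718 CPM in control Epi, so the fitted difference between tissues depends on the prior count.

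Between stages, Exe at E7.5 was compared with Exe at E6.5 in the same way. The Dnmt-null effect differed in 4 of 540 miRNAs (0.741%), all lower at E7.5, and the median difference over all was -0.03, or 0.11 with RLE factors. miR-10b-5p was at 50.4 to 143 CPM in control and 137 to 200.2 in Dnmt-null Exe at E6.5, and at 404 to 5699 and 41.2 to 410.5 at E7.5, a difference of effects of -4.77 (SE 0.93, adjusted p = 0.00631). miR-615-3p was at 0 to 9.90 and 0 to 40.8 CPM at E6.5, and the effects differed (adjusted p = 0.0134). Dnmt-null libraries at E7.5 were at or under 3 counts and those of E6.5 near the floor, so the fitted size of that difference depends on the prior count and is not given as a value here. At E7.5 the control libraries other than replicate 2 lay far above those of E6.5 and above all Dnmt-null libraries. The 2 others, miR-540-3p and miR-541-5p of the Dlk1-Dio3 locus, differed by -2.63 (SE 0.64, adjusted p = 0.0384) and -1.27 (SE 0.31, adjusted p = 0.0384). The effect on miR-199a-5p was -0.03 (SE 0.66, adjusted p = 0.993) at E6.5, and its difference of 3.41 (SE 0.93, adjusted p = 0.0888) between the stages did not pass. The germline X-linked miRNAs had 0 calls of 27 between the stages. The count of 4 became 2 without any one of Dnmt-null replicates 1 to 3 or control replicates 1 to 3 of E7.5, or of Dnmt-null replicates 1, 3 and 4 or control replicates 1 and 4 of E6.5, and 1 without E6.5 Exe Dnmt-null replicate 2.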

How the data were processed

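The authors deposited a table of whole-number miRNA counts, which they made from CAS-seq reads trimmed with fastp 0.20.1 and aligned with bowtie 1.2.1.1 to GRCm38, counting mature miRBase miRNAs with a tolerance of -2/+2 bases at the 3′ end. Libraries were made from 100 pg of total RNA with 2 amplification steps, in vitro transcription and PCR. No molecular identifiers are described, so detection floors cover counting error only. An earlier copy of the table, which was not used, holds 2 columns that matched no sample. No normalized values or fold changes of the authors were used.

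Counts of the 16 E7.5 Exe libraries (4 genotypes of 4 libraries) were fitted together with edgeR 4.0.16 in R 4.3.3, using TMM factors, filterByExpr with a count minimum of 10, and the quasi-likelihood test, 2-sided, with Benjamini-Hochberg adjustment over all tested miRNAs. SE is the absolute log2 fold change divided by the root of F. Called means an absolute log2 fold change above 0.5 with an adjusted p under 0.05. Interactions with tissue and stage were fitted in the same way over Exe with Epi and over both stages of Exe. The floor for a group at 0 was 3 counts per library. The text names, outside the Dlk1-Dio3 locus (chromosome 12, from the start of Dlk1 at 109452485 to the end of Dio3 at 110281097), up to 12 called miRNAs in each direction without overlap between the groups, the 6 most abundant called, up to 4 that passed of each list, and the 6 smallest adjusted p of each interaction. It also names the 5 largest changes inside the locus, the miRNAs the study names and the 6 most abundant of the controls. Others, among them the remaining members of the germline X-linked list, were named after their values were seen. Members, lists and alternatives were chosen with earlier results of these data known. Positions and sequences are from RefSeq tables of GRCm38.p6, in which 1490 of the 1504 miRNAs matched a gene and 1275 a mature sequence. Simulated counts with 180 tested miRNAs changed 4-fold gave 53.3% recovered and 0.761% of unchanged miRNAs called in this comparison (574 miRNAs tested). Alternatives were DESeq2 1.42.0, RLE and total scaling, TMM without the locus, other filters, thinned counts, a replicate block, a fit of the compared groups alone, and leaving out each library.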

Additional observations from a re-analysis of the deposited data

Results flagged for a closer look

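Single libraries far from the other 3 of their group were looked for in 128 groups of 4, over 64 named miRNAs, and 11 exceeded Dixon's 95% critical value for 4 samples, where chance alone marks about 1 in 20. In normalized CPM, 5 of them were control replicate 2: miR-292a-5p and miR-292b-3p at 8530.3, which are the same counts, miR-293-3p at 40019.8, miR-5108 at 11.0 and miR-802-5p at 1.22. Dnmt-null replicate 4 was apart for miR-369-3p, at 84.5, and for miR-92a-2-5p, at 241. Dnmt-null replicate 3 was apart for miR-10b-3p, at 8.07, and miR-142a-5p, at 652. The others were Dnmt-null replicate 2 for miR-5108, at 143, and Dnmt-null replicate 1 for miR-5126, at 149. For miR-10b-3p, for miR-802-5p and for miR-5108 in control replicate 2, the other 3 libraries were at 0. Any count exceeds the critical value there, so the rate of 1 in 20 does not apply to them.

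The Dnmt-null effect differed between Exe and Epi at E7.5, by the interaction test, for 19 named miRNAs. In log2, Exe minus Epi, the germline X-linked members gave -2.10 for miR-470-5p, -1.93 for miR-741-3p, -1.65 for miR-871-3p, -2.03 for miR-878-5p and -2.37 for miR-465a-5p. The Sfmbt2 members gave -2.04 for miR-466a-3p and miR-466e-3p, -2.03 for miR-466b-3p, miR-466c-3p and miR-466p-3p, and -1.16 for miR-669c-5p. In the miR-290-295 cluster the values were -0.99 for miR-292a-5p and miR-292b-3p, -0.87 for miR-293-3p and -0.97 for miR-295-3p. miR-142a-5p gave -7.25. Higher in Exe were miR-351-3p, at 2.36, and miR-483-3p and miR-483-5p, at 8.77 and 8.56, which are fitted against Epi libraries at 0 and are no bound.

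Between E7.5 and E6.5 Exe the effect differed for 4 named miRNAs, by -4.77 for miR-10b-5p, -8.03 for miR-615-3p, -2.63 for miR-540-3p and -1.27 for miR-541-5p. The value of miR-615-3p is fitted on Dnmt-null libraries at or under 3 counts, depends on the prior count and is no bound.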

How the results depend on the processing

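Of the 43 called miRNAs named by the rule above, 25 kept the call in every alternative run, and over 773 values 680 kept it, 93 lost it and 0 changed sign. Called miRNAs named after their values were seen, among them miR-880-3p and miR-320-3p, are not in this tally. Of the 20 named that were not called, 26 of 359 values passed and 2 changed sign, both of miR-127-5p, whose 0.30 became -0.051 when Dnmt-null replicate 1 was left out, 0.514 when control replicate 2 was, and -0.023 with counts thinned to equal depth. At an unadjusted p the counts of calls were 116 against control (59 adjusted), 89 for Dnmt1-KO (7), 57 for Dnmt3a/3b-DKO (23), 120 between tissues (51) and 40 between stages (4). With DESeq2 these were 32 for Dnmt1-KO and 39 for Dnmt3a/3b-DKO. Without a filter the calls were 29 against Dnmt1-KO and 10 between stages, and with RLE factors, with TMM without the locus or with a mean count of at least 10, between stages, 2 each. Leaving out 1 library gave 42 to 85 calls against control, 3 to 41 for Dnmt1-KO, 11 to 32 for Dnmt3a/3b-DKO, 28 to 51 between tissues and 1 to 4 between stages. Causes were not tested. After its group's mean was taken from each library, same-numbered control and Dnmt-null libraries had correlations of -0.04, 0.131, 0.00120 and -0.01. Differently numbered ones had -0.096 to 0.113, so no pairing by number was seen, which does not exclude one. A replicate block gave 52, 7, 12, 40 and 2 calls in that order of comparisons. The shallowest library, with 266379 counts, sets the detection floor of 11.3 CPM.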

Other observations

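Some miRNAs outside the rule for named miRNAs are given as values, chosen after these were seen. miR-129b-5p and miR-129-2-3p, which overlap on opposite strands of 1 place, were at 0 in all 4 control libraries and at 173, 0, 87.4 and 101 and 111, 0, 67.3 and 101 normalized CPM in the Dnmt-null libraries (adjusted p = 0.0168 and 0.0232). Dnmt-null replicate 2 was at 0 for both, as were the controls. With both libraries that stand apart left out miR-129-2-3p was not called (adjusted p = 0.0572), and miR-129b-5p was (adjusted p = 0.0434). miR-200a-3p and miR-141-3p, miRNAs of epithelia, were at 5.54 and 40.2 normalized CPM in Dnmt-null replicate 4, against 514 to 843 and 327 to 364 in the other Dnmt-null libraries.

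Against Dnmt3a/3b-DKO, miR-451a and miR-486a-5p, miRNAs of red blood cells, passed as lower in Dnmt-null Exe, but 1 library set the size. miR-451a had 1539.8 normalized CPM in Dnmt3a/3b-DKO replicate 2, a median of 154 in that group and 10.4 to 19.4 in Dnmt-null, and its log2 difference of -4.89 became -3.09 without that replicate and did not pass (adjusted p = 0.183, range over single libraries left out 0.0105 to 0.183). For miR-486a-5p the replicate was at 3919, and -3.29 became -1.11 (adjusted p = 0.605, range 0.0105 to 0.605). Neither passed against control.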
